A study of Vitis vinifera with 36 samples.

Results

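In the berries of the ‘Victoria’ (V) grape, 211 of the 28119 genes listed in any library were more abundant in the winter than in the summer season at the onset of veraison and less abundant in the winter season at harvest. They were chosen by FPKM (read fragments per kilobase of a transcript, relative to library depth) averaged over 3 replicates: the ratio of winter to summer level, with 0.5 added to both, was at least 2 at E-L 35 and at most 0.5 at E-L 38. Another 24 genes met both limits and were set aside by identifier (those starting with VIT_216s0039g01 or VIT_216s0100g, and VIT_211s0052g01090), 2 of them on the study's list of flavonoid genes. The limits alone were met by 1305 genes at E-L 35 and by 2690 genes at E-L 38. The values of ‘Victoria’ at these stages chose the genes and are given below as a description. The comparisons in ‘Victoria’ at E-L 36 and in ‘Muscat Hamburg’ (MH) did not enter the choice and were tested.

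The groups were winter and summer season berries of ‘Victoria’ and of ‘Muscat Hamburg’ at the onset of veraison (E-L 35), after complete veraison (E-L 36) and at harvest (E-L 38), which makes 12 groups of 3 biological replicates and 36 libraries. All vines were 7 years old, grafted on SO4 rootstock and grown under a rain shelter in southern China in 2014. They carried both crops of that year, because they were pruned and forced with hydrogen cyanamide for each crop. By the labels, the agent was placed on other parts of the cane for the winter than for the summer crop, and leaves were removed by hand before the winter crop. RNA came from whole berries without seeds, so fewer cells of a type and less RNA per cell cannot be told apart. Each season was represented by 1 crop of 1 vintage, so season and any other difference between both crops cannot be told apart.

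Veraison is the turn from the green, hard berry to the ripening one. The berry softens, sugars accumulate, acids decline and, in black varieties, anthocyanins colour the skin. ‘Muscat Hamburg’ is black and ‘Victoria’ is white. VviUFGT (VIT_216s0039g02230), the glucosyltransferase that makes anthocyanins, checked the variety labels: it ranged from 18.8 to 74.96 FPKM in the MH libraries and from 6.35 to 12.99 FPKM in the V libraries. Phenylalanine ammonia-lyase (PAL), the other enzyme of known role in what follows, turns phenylalanine into cinnamic acid and so opens the phenylpropanoid pathway, which leads to flavonoids, stilbenes and lignin. The identifiers of the 211 genes are those of the grapevine annotation used in the files. Of them, 1 could be given a role here, the PAL gene VIT_208s0040g01710, and the others are described by identifier and values.

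The libraries held from 5624449 to 18606068 estimated counts, and at E-L 35 every summer library was deeper than every winter library in both varieties. In 33 of 36 libraries the best correlation over all tested genes was with a library of the same group, and the exceptions paired summer season libraries of E-L 36 and E-L 38 within a variety. The V winter E-L 35 library of replicate 3 stood apart for the 211 genes. Their median level was 11.02, 12.02 and 21.3 FPKM in the V winter E-L 35 replicates 1 to 3, against 5.06, 3.80 and 3.88 FPKM in the V summer E-L 35 libraries. Replicate 3 was the highest of the 3 winter libraries for 124 of the 211 genes, and for 69 it was over 2 times each of the others. Without it, 157 genes met the limits, of which 142 were among the 211. The median SD of log2(FPKM + 0.5) over the 3 winter E-L 35 libraries was 0.618 for the 211 genes and 0.213 for all tested genes, and over the summer ones it was 0.306 for the 211 genes and 0.148 for all tested genes. Results below are also given for the 157 genes.

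Later in ripening the V winter replicates lay closer together and the order of the seasons was turned. At E-L 36 the median level of the 211 genes was 5.57, 5.37 and 5.46 FPKM in the V winter libraries, against 9.27, 13.7 and 13.02 FPKM in the V summer libraries. At E-L 38 it was 2.58, 2.28 and 2.55 FPKM in the V winter libraries, against 10.7, 8.91 and 9.52 FPKM in the V summer libraries. The seasons did not overlap in this median at any of the 3 stages. In MH the same median was 7.12, 7.33 and 6.67 FPKM in the winter libraries, against 5.30, 5.63 and 5.57 FPKM in the summer libraries at E-L 35. At E-L 36 it was 7.77, 7.81 and 5.11 FPKM in the MH winter libraries, against 6.86, 5.23 and 6.22 FPKM in the MH summer libraries, and the seasons overlapped. At E-L 38 it was 3.15, 3.69 and 2.62 FPKM in the MH winter libraries, against 5.26, 5.71 and 5.40 FPKM in the MH summer libraries. The median over the 211 genes was thus above summer at E-L 35 and below summer at E-L 38 in MH winter berries as well. Its range was narrower than in V, where the genes were chosen.

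**Figure D1:**
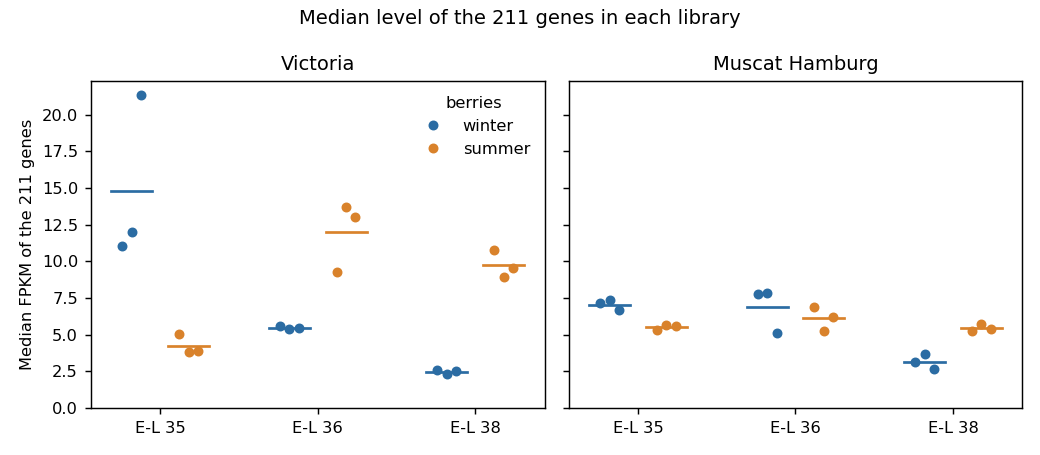
Median FPKM of the 211 genes in each library (points) and its mean over the 3 replicates of a group (lines), by stage, with winter berries left of summer berries. The V winter libraries range from 11.02 to 21.3 FPKM at E-L 35 and from 2.28 to 2.58 FPKM at E-L 38, and the highest point is V winter E-L 35 replicate 3.

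Followed along ripening, the pattern in V was made of a decline in one crop and an increase in the other. In V winter berries 192 of the 211 genes had their highest mean at E-L 35, and the median log2 ratio of E-L 38 to E-L 35 was -2.20, with 208 genes below 0. In V summer berries 129 genes peaked in mean level after complete veraison and 70 at harvest, and the median log2 ratio of E-L 38 to E-L 35 was 1.17, with 194 genes above 0. Over all tested genes these medians were -0.10 in winter and -0.26 in summer berries. In V, the median log2 ratio of E-L 36 to E-L 35 was -1.42 in winter and 1.25 in summer berries. That of E-L 38 to E-L 36 was -0.69 in winter and -0.14 in summer berries. The limits used the V values at E-L 35 and E-L 38 and so favour such a course in V. No timing is read from it. In MH winter berries, the median log2 ratio of E-L 36 to E-L 35 was 0.03 and that of E-L 38 to E-L 36 was -0.69. All these ratios are of mean FPKM with 0.5 added.

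On this scale the median log2 ratio of winter to summer was 1.48 in V at E-L 35 and -1.57 in V at E-L 38, where the limits chose the genes. Over all tested genes the medians in V were -0.14 at the onset of veraison and -0.01 at harvest. In V at E-L 36, which the limits did not use, the median was -1.08 and 118 of the 211 genes were at or below -1. In MH the medians were 0.29 at the onset of veraison, -0.28 at E-L 36 and -0.82 at harvest. Just inside the limit at E-L 35 lay VIT_200s0397g00010 with a ratio of 2.00 and VIT_214s0068g01190 with 2.00, and just outside it VIT_200s0357g00100 with 1.998 and VIT_212s0034g00040 with 1.99. At E-L 38, VIT_200s0587g00030 with 0.499 and VIT_204s0023g03170 with 0.495 lay just inside, and VIT_200s0187g00130 with 0.5002 and VIT_215s0046g02170 with 0.501 just outside.

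**Figure D2:**
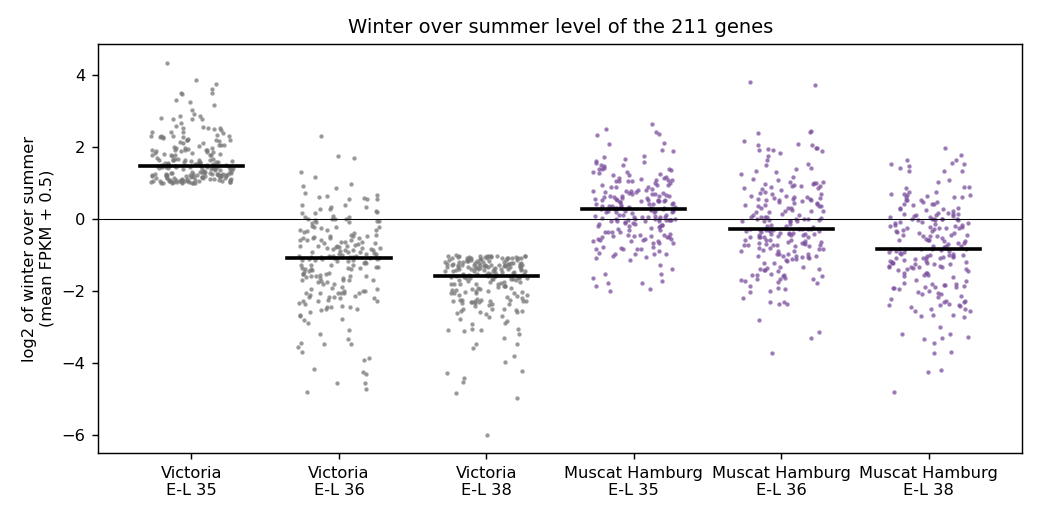
Log2 ratio of winter to summer mean FPKM, with 0.5 added to both, for each of the 211 genes (points) and their median (bars) in V and MH at the 3 stages. The V values at E-L 35 and E-L 38 are bounded by the limits that chose the genes. The median is -1.08 in V at E-L 36 and lies at 0.29, -0.28 and -0.82 in MH at the successive stages.

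For the tests, gene counts of all 36 libraries were fitted together with edgeR. A gene was past the threshold where its Benjamini-Hochberg adjusted p over 19736 tested genes was at most 0.05 and its fold change at least 2. Of the 211 genes, 200 had counts high enough to be tested. In the contrasts that the choice used, 191 of these 200 were past the threshold upward in V winter berries at E-L 35 (8.44% of all tested genes were) and 178 downward at E-L 38 (15.9% of all tested genes). The limits fix this direction and nothing is read from it.

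In V at E-L 36, the members were mostly lower in winter berries already. Of the 200 tested genes, 103 were past the threshold downward and 5 upward, and 92 did not pass, while 13.6% of all tested genes were lower and 9.96% higher. The median log2 fold change of the 200 genes was -1.21, against -0.02 over all tested genes. With the genes chosen without V winter E-L 35 replicate 3, 77 of 148 tested genes were lower and 4 higher. Without an overlap of the 3 winter and 3 summer libraries, winter was below summer for 119 of the 211 genes and above it for 14, against 28.3% and 27.1% of all tested genes.

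The most abundant of the 211 genes was VIT_214s0060g00280, with 551, 574 and 554 FPKM in V winter berries at E-L 36, against 1470, 1233 and 1209 FPKM in V summer berries. All winter libraries lay below all summer libraries, and the log2 fold change was -1.18 ± 0.23 (SE; n = 3 each; adjusted p = 8.97e-05, edgeR). At E-L 35 it had 708, 791 and 1052 FPKM in V winter berries, against 374, 408 and 302 FPKM in V summer berries, and at E-L 38 it had 156, 350 and 351 FPKM in winter, against 1114, 1106 and 1475 FPKM in summer. In V this gene thus declined at each stage in winter berries, while its summer level was higher at E-L 36 and E-L 38 than at E-L 35. The next most abundant, VIT_208s0217g00100, had 270, 254 and 262 FPKM in V winter berries at E-L 36, against 1031, 626 and 617 FPKM in V summer berries. Its log2 fold change was -1.50 ± 0.32 (SE; adjusted p = 0.000295, edgeR).

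VIT_218s0001g14440 showed the reversal of V without an overlap of the seasons at any stage. It had 136, 77.1 and 127 FPKM in V winter berries at E-L 35, against 9.25, 11.7 and 8.19 FPKM in V summer berries. At E-L 36 the order was turned, with 9.38, 10.4 and 10.6 FPKM in V winter berries, against 155, 69.6 and 93.4 FPKM in V summer berries (log2 fold change -3.37 ± 0.34 SE, adjusted p = 4.33e-09, edgeR). At harvest this gene had 22.9, 11.9 and 10.7 FPKM in V winter berries, against 87.7, 82.6 and 95.3 FPKM in V summer berries. V summer berries at veraison and harvest thus held about the level that V winter berries held at its onset.

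The 2 most lowered genes and the most raised gene in V at E-L 36 were at few counts in winter or in summer berries. VIT_211s0016g04510 had 0, 0 and 0.35 FPKM in V winter berries at E-L 36 (1 count over 3 libraries), against 10.6, 15.6 and 15.8 FPKM (128 counts) in V summer berries. VIT_201s0127g00250 had 1 count in V winter berries and 71 counts in V summer berries. Among the 5 genes that were higher in winter, VIT_211s0016g03740 had 7.0, 6.26 and 7.39 FPKM in V winter berries at E-L 36, against 2.82, 1.52 and 0.77 FPKM in V summer berries (log2 fold change 2.02 ± 0.60 SE, adjusted p = 0.00637, edgeR). VIT_209s0054g00570 had 2.67, 2.35 and 2.54 FPKM (40.6 counts) in V winter berries, against 0.15, 0 and 0.19 FPKM (2 counts) in V summer berries.

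In MH at E-L 35 most of the genes did not pass the threshold, and most of those that did were higher in winter berries. Of the 200 tested genes, 30 were higher and 7 lower in MH winter berries and 163 did not pass, while 4.15% of all tested genes were higher and 1.86% lower. The median log2 fold change was 0.28, against 0.00 over all tested genes. Leaving out any 1 of the 6 MH libraries at E-L 35 left 24 to 27 genes higher and 2 or 3 lower, and a fit of these 6 libraries alone gave 36 higher and 19 lower. With the genes chosen without V winter E-L 35 replicate 3, 31 of 148 were higher and 5 lower. VIT_211s0016g03740 had 1.53, 1.66 and 1.42 FPKM in MH winter berries, against 0.03, 0.03 and 0.08 FPKM in MH summer berries (log2 fold change 4.88 ± 1.06 SE, adjusted p = 0.00174, edgeR; 122 counts in winter and 5 in summer). VIT_212s0055g01000 had 6.77 counts over the 3 MH winter libraries and none over the 3 summer libraries, which makes it at least 1.09-fold higher at a limit of 3 counts per library. This call was lost under 6 of 12 alternatives, with limma on log2(FPKM + 1) (adjusted p = 0.466) and without any 1 library but winter replicate 3 (adjusted p between 0.0534 and 0.131, edgeR). In the other direction, VIT_216s0022g00940 had 8.81, 9.17 and 6.40 FPKM in MH winter berries, against 36.4, 33.7 and 32.7 FPKM in MH summer berries (log2 fold change -2.13 ± 0.37 SE, adjusted p = 0.000166, edgeR). In V, where it was chosen, the same gene had 24.4, 12.5 and 23.7 FPKM in winter and 10.1, 8.25 and 6.31 FPKM in summer berries at E-L 35, so both varieties stood in opposite order at this stage. VIT_208s0040g01060 had 0, 0 and 0.40 FPKM in MH winter berries, against 1.94, 1.50 and 1.60 FPKM in MH summer berries (log2 fold change -3.53 ± 1.16 SE, adjusted p = 0.0324, edgeR), and leaving out any library but winter replicate 3 raised the adjusted p to between 0.0563 and 0.133.

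In MH at E-L 36 the genes were divided. Of the 200, 31 were higher and 43 lower in MH winter berries, while 9.80% of all tested genes were higher and 8.97% lower, and the median log2 fold change was -0.44. This balance rested on single libraries: it was 35 higher and 30 lower without MH summer replicate 1, 24 higher and 55 lower without MH summer replicate 2, and 34 higher and 32 lower with limma on log2(FPKM + 0.1). With the genes chosen without V winter E-L 35 replicate 3, 23 of 148 were higher and 35 lower. VIT_204s0044g01160 had 1.19, 0.92 and 0.44 FPKM in MH winter berries, against 43.4, 1.96 and 6.57 FPKM in MH summer berries (log2 fold change -4.43 ± 0.87 SE, adjusted p = 0.00015, edgeR), so summer replicate 1 was far above the others. VIT_208s0040g01060 had 0.27, 0.14 and 0 FPKM in MH winter berries, against 5.61, 0.62 and 1.68 FPKM in MH summer berries (log2 fold change -4.34 ± 1.12 SE, adjusted p = 0.00254, edgeR). Among the higher genes, VIT_200s0586g00030 had 2.00, 2.25 and 0.55 FPKM in MH winter berries and was at 0 in all MH summer libraries at E-L 36, which makes it at least 6.50-fold higher at a limit of 3 counts per library. This call was lost without any 1 of the MH summer libraries (adjusted p between 0.0551 and 0.0584, edgeR) and with limma on log2(FPKM + 1) (adjusted p = 0.0704). VIT_210s0042g00860 had 47.3 counts over the MH winter libraries and 1 count over the MH summer libraries.

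At harvest the genes were lower in MH winter berries far more often than higher. In MH at E-L 38, 83 of the 200 were lower and 10 higher, while 11.1% of all tested genes were lower and 8.90% higher, and 107 did not pass. The median log2 fold change was -0.98, against 0.00 over all tested genes. With the genes chosen without V winter E-L 35 replicate 3, 68 of 148 were lower and 8 higher. Winter and summer libraries did not overlap for 106 genes with winter below summer and for 20 with winter above it, against 30.4% and 24.4% of all tested genes.

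VIT_214s0060g00280 had 427, 471 and 450 FPKM in MH winter berries at E-L 38, against 1035, 1208 and 875 FPKM in MH summer berries (log2 fold change -1.15 ± 0.23 SE, adjusted p = 0.000147, edgeR). VIT_208s0217g00100 had 141, 138 and 131 FPKM in MH winter berries, against 694, 653 and 591 FPKM in MH summer berries (log2 fold change -2.17 ± 0.33 SE, adjusted p = 4.12e-06, edgeR). For both genes every winter library was below every summer library. The lowest fitted values belonged to VIT_208s0040g01110, with no count in MH winter berries and 53.9 counts in MH summer berries (at least 5.66-fold lower at a limit of 3 counts per library), and to VIT_204s0044g01160. VIT_204s0044g01160 had 0.08, 0.41 and 0.37 FPKM in MH winter berries, against 14.8, 13.2 and 15.2 FPKM in MH summer berries (log2 fold change -5.46 ± 1.03 SE, adjusted p = 8.02e-05, edgeR). Among the 10 genes that were higher, VIT_203s0091g01290 had 0.44, 1.45 and 0.96 FPKM in MH winter berries, against 0, 0.10 and 0.12 FPKM in MH summer berries, with 60 counts in winter and 5 in summer. VIT_217s0000g03370 had 1.86, 2.58 and 0.95 FPKM in MH winter berries, against 0.16, 0.48 and 0.42 FPKM in MH summer berries (log2 fold change 2.46 ± 0.52 SE, adjusted p = 0.000317, edgeR).

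**Figure D3:**
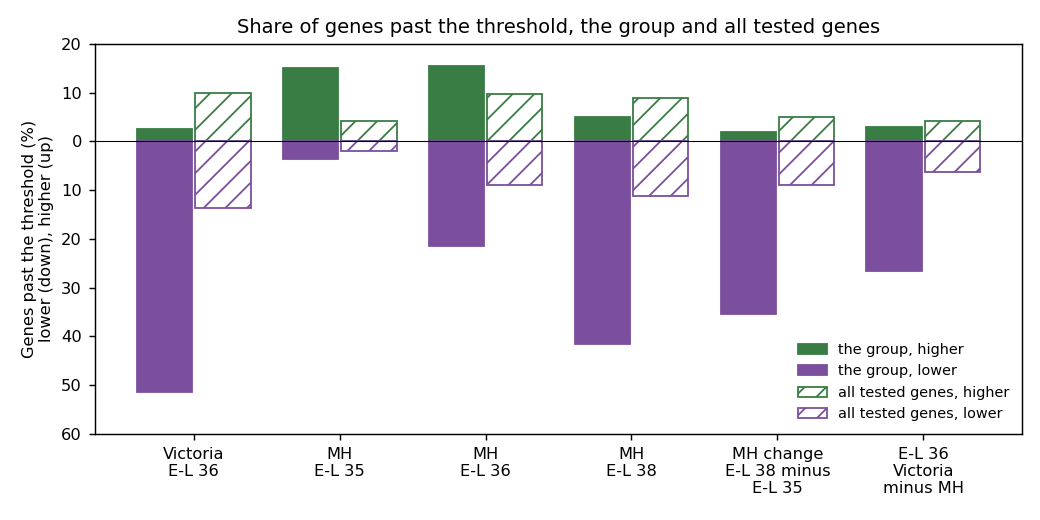
Share of genes past the threshold in 6 comparisons, upward bars for higher and downward bars for lower in winter berries (in the 2 differences of season effects, a more positive or more negative effect). Filled bars are the 200 tested genes of the group, hatched bars all 19736 tested genes. In V at E-L 36, 51.5% of the group are lower, against 13.6% of all tested genes, and in MH at E-L 38, 41.5%, against 11.1%.

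The change of the season effect was tested in MH as the effect at harvest minus that at the onset of veraison. The contrast holds MH libraries only. The libraries that chose the genes entered the joint fit, and so its filter on low counts and its estimate of spread. A gene can pass this test with an effect of the same sign at both stages. The change was past the threshold downward for 71 and upward for 4 of the 200 genes. Of all tested genes, 8.85% had a downward and 5.10% an upward change. The median change was -1.29 on the log2 scale, against -0.01 over all tested genes. With the genes chosen without V winter E-L 35 replicate 3, 70 of 148 changed downward and 4 upward. In a fit of the compared MH libraries alone, 96 members changed downward and 9 upward, with 3211 genes past the threshold in all. On the fitted scale, 83 of the 200 genes (41.5%) were above 0 at E-L 35 and below 0 at E-L 38 in MH, as were 20.0% of all tested genes. The full limits used in V were met in MH by 12 of the 211 genes and by 54 of all 28119 genes.

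VIT_218s0001g14440 had 49.8, 45.1 and 44.7 FPKM in MH winter berries at E-L 35, against 22.2, 22.6 and 24.2 FPKM in MH summer berries, a log2 fold change of 0.97 that lay just under the threshold of fold. By harvest it had 12.9, 10.2 and 12.8 FPKM in MH winter berries, against 33.8, 36.7 and 38.0 FPKM in MH summer berries (log2 fold change -1.53 ± 0.33 SE, adjusted p = 0.000344, edgeR). The season effect changed by -2.50 ± 0.45 (SE) on the log2 scale (adjusted p = 0.000131, edgeR), and the libraries of winter and summer did not overlap at either stage. The change was also past the threshold for VIT_208s0217g00100 (-2.43 ± 0.45 SE, adjusted p = 0.000192, edgeR) and VIT_214s0060g00280 (-1.28 ± 0.32 SE, adjusted p = 0.00349, edgeR). Neither of these 2 genes differed past the threshold between seasons in MH at E-L 35, where VIT_214s0060g00280 had 1020, 982 and 956 FPKM in winter and 833, 862 and 929 FPKM in summer berries.

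VIT_211s0016g03740 was higher in MH winter berries at E-L 35, with the values above, and had 0.32, 0.92 and 0.47 FPKM in MH winter berries at E-L 38, against 3.48, 5.40 and 1.58 FPKM in MH summer berries. Its season effect changed by -7.40 ± 1.26 (SE) on the log2 scale (adjusted p = 6.94e-05, edgeR). VIT_215s0107g00550 changed in the opposite direction in MH: it had 2.35, 2.91 and 1.86 FPKM in MH winter berries, against 7.88, 5.88 and 3.02 FPKM in MH summer berries at E-L 35. At harvest it had 4.21, 7.37 and 5.03 FPKM in MH winter berries, against 2.01, 0.71 and 1.61 FPKM in MH summer berries (change 3.29 ± 0.60 SE, adjusted p = 0.000162, edgeR). In V this gene had 12.1, 7.75 and 5.36 FPKM in winter and 2.81, 2.73 and 2.96 FPKM in summer berries at E-L 35.

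**Figure D4:**
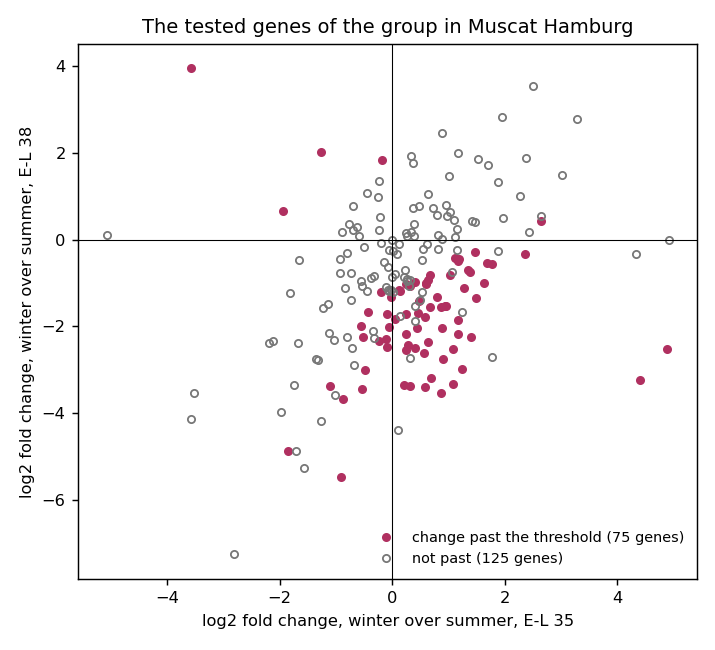
Log2 fold change of winter over summer in MH at E-L 35 (horizontal) and at E-L 38 (vertical) for the 200 tested genes. Filled points mark the 75 genes whose season effect changed past the threshold between both stages, 71 of them downward. Both axes compare MH libraries only, while the fit held the libraries of both varieties.

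The change in MH was made of both crops. In MH winter berries, 67 of the 200 genes were lower and 14 higher at E-L 38 than at E-L 35, while 13.9% of all tested genes were lower and 6.37% higher. In MH summer berries, 49 were higher and 22 lower at E-L 38 than at E-L 35, while 5.20% of all tested genes were higher and 8.06% lower. These comparisons use the same libraries as the season effects above and are another view of them. VIT_213s0019g04140 had 0.38, 0.12 and 0.19 FPKM in MH winter berries at E-L 38, against 17.6, 17.4 and 20.0 FPKM at E-L 35 (log2 fold change -6.25 ± 0.61 SE, adjusted p = 3.70e-09, edgeR). VIT_216s0013g02160 had 113, 56.5 and 117 FPKM in MH winter berries at E-L 38, against 18.6, 11.9 and 14.3 FPKM at E-L 35 (log2 fold change 2.79 ± 0.52 SE, adjusted p = 7.09e-05, edgeR). VIT_213s0019g00330 had 10.8, 8.74 and 8.57 FPKM in MH summer berries at E-L 38, against 276, 259 and 226 FPKM at E-L 35 (log2 fold change -4.77 ± 0.65 SE, adjusted p = 2.28e-06, edgeR). In V winter berries VIT_213s0019g00330 had 6.17, 31.4 and 27.7 FPKM at harvest, against 1047, 692 and 1304 FPKM at the onset of veraison. In V summer berries it had 635, 314 and 98.0 FPKM at harvest, against 256, 200 and 168 FPKM at the onset, and the stages overlapped.

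The varieties were compared directly at E-L 36, a stage whose libraries the choice did not use. The genes were chosen by their season effects in V alone, which favours larger effects in V, so the comparison is not an even one. The season effect in V was more negative than in MH past the threshold for 53 of the 200 genes and more positive for 6, while 6.24% of all tested genes had a more negative and 4.16% a more positive effect. With the genes chosen without V winter E-L 35 replicate 3 the counts were 42 and 6 of 148, and leaving out 1 of the 12 libraries at E-L 36 gave 39 to 69 more negative genes. The most negative differences were -9.17 for VIT_200s0586g00030 and -6.00 for VIT_200s2485g00010 (adjusted p = 0.0258 and 0.0456, edgeR). Both genes had 0 counts in MH summer berries at E-L 36, and the calls were lost under 5 and 12 of 19 alternatives. The genes that follow were among the 6 with a more positive effect. VIT_203s0063g01820 had 2.27, 3.32 and 3.38 FPKM in V winter berries, against 1.64, 3.56 and 1.67 FPKM in V summer berries, and 0.21, 0.10 and 1.89 FPKM in MH winter berries, against 3.10, 17.4 and 14.6 FPKM in MH summer berries (difference 4.48 ± 1.04 SE on the log2 scale, adjusted p = 0.00292, edgeR). VIT_201s0010g01260 had 16.6, 22.3 and 15.7 FPKM in V winter berries, against 12.7, 15.1 and 8.73 FPKM in V summer berries, and 8.34, 8.38 and 15.1 FPKM in MH winter berries, against 86.0, 11.1 and 54.1 FPKM in MH summer berries (difference 2.91 ± 0.71 SE, adjusted p = 0.00429, edgeR). For VIT_203s0063g01820 the seasons overlapped in V and every MH winter library was below every MH summer library. For VIT_201s0010g01260 every V winter library was above every V summer library and the seasons overlapped in MH.

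The downward calls of both varieties were set side by side. Of the 103 genes lower in V winter berries at E-L 36, 62 (60.2%) were also lower in MH winter berries at E-L 38 and 3 were higher, while 45.8% of all tested genes that were lower in V at E-L 36 were lower in MH at E-L 38 and 1.26% were higher. Of the 92 genes that did not pass in V at E-L 36, 20 (21.7%) were lower in MH at E-L 38 and 7 were higher, against 6.07% and 5.61% of all tested genes that did not pass in V at E-L 36. These contrasts share no library, although all libraries were fitted together. At E-L 36 itself, 34 of the 103 (33.0%) were also lower in MH winter berries and 8 (7.77%) were higher, against 37.7% and 3.61% of all tested genes lower in V at E-L 36.

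The PAL gene VIT_208s0040g01710 was in MH winter berries among the 30 higher genes at E-L 35 and the 31 higher genes at E-L 36. In V it had 14.9, 22.4 and 41.2 FPKM in winter berries at E-L 35, against 7.60, 2.28 and 2.51 FPKM in summer berries. At E-L 36 it had 6.13, 7.07 and 6.20 FPKM in V winter berries, against 4.40, 23.2 and 17.2 FPKM in V summer berries (log2 fold change -1.14 ± 0.49 SE, adjusted p = 0.0523, edgeR). This missed the threshold, and summer replicate 1 was the only summer library below the winter ones; without it the log2 fold change was -1.57 and the adjusted p = 0.00578. It also passed with DESeq2 (log2 fold change -1.17, adjusted p = 0.0419) and with RLE factors in edgeR (-1.16, adjusted p = 0.0496). At E-L 38 it had 7.33, 2.00 and 2.19 FPKM in V winter berries, against 8.81, 5.71 and 10.6 FPKM in V summer berries.

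In MH the same PAL gene had 10.2, 10.0 and 10.7 FPKM in winter berries at E-L 35, against 2.30, 2.05 and 1.77 FPKM in summer berries (log2 fold change 2.28 ± 0.53 SE, adjusted p = 0.00298, edgeR). At E-L 36 it had 24.97, 24.1 and 11.2 FPKM in MH winter berries, against 3.50, 3.94 and 2.76 FPKM in MH summer berries (log2 fold change 2.45 ± 0.51 SE, adjusted p = 0.000325, edgeR). At harvest there were 8.47, 16.9 and 7.33 FPKM in MH winter berries, against 7.61, 3.18 and 6.34 FPKM in MH summer berries (log2 fold change 1.01 ± 0.49 SE, adjusted p = 0.0955, edgeR). It was thus higher in MH winter berries at veraison, and at harvest winter and summer libraries overlapped. Its season effect in MH changed between onset and harvest by -1.27 ± 0.71 (SE, adjusted p = 0.194, edgeR), which did not pass and lay close to the median change of the group. In a fit of the compared libraries alone, this change (adjusted p = 0.0230, edgeR) and the effect at harvest (adjusted p = 0.0311, edgeR) passed. The season effect at E-L 36 was lower in V than in MH by a log2 difference of -3.59 ± 0.71 (SE, adjusted p = 0.000638, edgeR), and this call held under all 19 alternatives tried.

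Of the other genes of the pathway, the study's flavonoid list holds 64 genes, all tested, and 1 of them, this PAL gene, is among the 211. By identifier, 8 of the 64 were set aside beforehand, of which 2 met both limits, so the 1 does not measure how often the list met them. In V at E-L 36, 15 of the 64 were higher and 6 lower in winter berries, while 9.96% of all tested genes were higher and 13.6% lower. In MH, 30 were higher and none lower at the onset of veraison (edgeR, with 3 lower at an unadjusted p under 0.05 and none with DESeq2), while 4.15% of all tested genes were higher and 1.86% lower. At E-L 36, 35 were higher and 3 lower in MH winter berries, while 9.80% and 8.97% of all tested genes were. At harvest 22 were higher and 2 lower, while 8.90% and 11.1% of all tested genes were. The median log2 fold change of the list in MH was 1.26, 1.50 and 0.85 at the successive stages. The list holds 11 PAL genes, of which 11 were higher in MH winter berries after complete veraison and 7 at harvest. In V at E-L 36, 2 of the 11 were higher and none lower with edgeR, while 1, VIT_208s0040g01710, was lower at an unadjusted p under 0.05 and with DESeq2. Since the list was drawn up on these samples, its direction is no independent evidence.

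**Figure D5:**
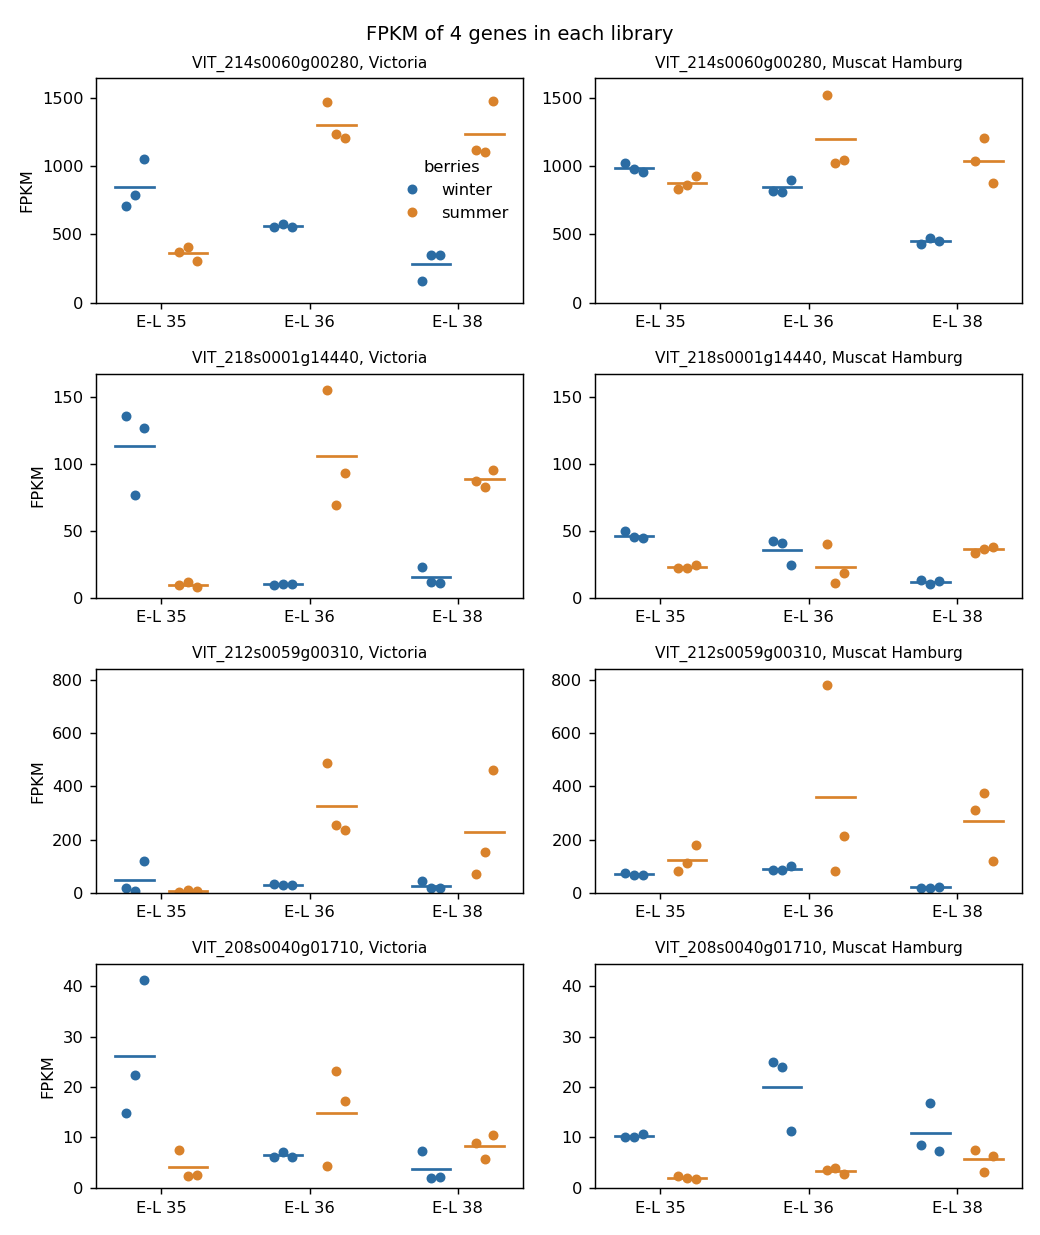
FPKM of VIT_214s0060g00280, VIT_218s0001g14440, VIT_212s0059g00310 and the PAL gene VIT_208s0040g01710 in each library (points) and mean of 3 replicates (lines), V on the left and MH on the right, with winter berries left of summer berries at each stage. The PAL gene is higher in all MH winter libraries than in all MH summer libraries up to complete veraison, while the other genes are lower in all MH winter libraries at E-L 38.

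Some of the 211 genes had neighbouring identifiers, which follow the order along a sequence. Runs of at least 3 members with identifiers at most 200 apart were found on 4 sequences. Tested genes were counted from the first to the last member of a run, so both ends of each span are members by definition. The densest were 5 members among 7 tested genes in the span on VIT_212s0059 and 3 among 3 in that on VIT_212s0035. The others were 4 among 19 in the span on VIT_207s0031 and 3 among 19 in that on VIT_218s0001. Neighbours that resemble each other can share reads. Counts that were not whole numbers, which arise when reads are divided between genes or transcripts, occurred in at least 1 library for 43.1% of the 211 genes and for 33.5% of all tested genes, so the values of close copies are uncertain.

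The VIT_212s0059 run moved together, and its E-L 35 values rested on 1 library. All 5 members had their highest V winter E-L 35 value in replicate 3. VIT_212s0059g00310 had 17.5, 5.71 and 121 FPKM in V winter berries at E-L 35, against 2.27, 9.60 and 6.06 FPKM in V summer berries. VIT_212s0059g00370 had 0.89, 0.54 and 21.3 FPKM in V winter berries, against 1.05, 0.88 and 1.61 FPKM in V summer berries, so without replicate 3 its winter level was not above the summer level. At E-L 36 all 5 members were lower in V winter berries, with log2 fold changes between -5.13 and -3.42. VIT_212s0059g00310 had 32.4, 29.1 and 27.7 FPKM in V winter berries at E-L 36, against 488, 254 and 236 FPKM in V summer berries (log2 fold change -3.42 ± 0.77 SE, adjusted p = 0.000543, edgeR).

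In MH none of the 5 passed the threshold at E-L 35. Their log2 fold changes there lay between -3.57 and -0.87, so winter was below summer already, unlike in V. In a fit of the compared libraries alone, VIT_212s0059g00370 passed downward at E-L 35 (log2 fold change -1.85, adjusted p = 3.84e-06, edgeR). In MH winter berries 3 of the 5 were lower after complete veraison and 4 at harvest. VIT_212s0059g00310 had 19.1, 19.6 and 21.9 FPKM in MH winter berries at E-L 38, against 312, 374 and 118 FPKM in MH summer berries (log2 fold change -3.67 ± 0.80 SE, adjusted p = 0.000416, edgeR). At E-L 36 it had 84.3, 86.7 and 99.7 FPKM in MH winter berries, against 780, 83.2 and 214 FPKM in MH summer berries (log2 fold change -2.06, adjusted p = 0.0209, edgeR), and without summer replicate 1 the log2 fold change was -0.77 with an adjusted p of 0.401. The change of its season effect between onset and harvest was -2.80 ± 1.04 (SE, adjusted p = 0.0452, edgeR), a call that was lost under 12 of 19 alternatives. For VIT_212s0059g00370 this change was -3.02 ± 1.14 (SE, adjusted p = 0.0484, edgeR), and the call was lost under 14 of 19.

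In the VIT_207s0031 run, 3 of 4 members were lower in V winter berries at E-L 36 and 2 in MH winter berries at E-L 38. VIT_207s0031g01160 had 20.8, 19.9 and 21.8 FPKM in V winter berries at E-L 36, against 57.4, 102 and 97.0 FPKM in V summer berries (log2 fold change -1.99 ± 0.35 SE, adjusted p = 3.40e-05, edgeR). At E-L 38 it had 3.68, 6.56 and 4.70 FPKM in MH winter berries, against 70.3, 45.4 and 45.2 FPKM in MH summer berries (log2 fold change -3.35 ± 0.39 SE, adjusted p = 6.82e-08, edgeR). Its season effect in MH changed by -3.57 ± 0.53 (SE, adjusted p = 1.15e-05, edgeR). The neighbour VIT_207s0031g01275 had 62.7, 45.9 and 56.0 FPKM in MH winter berries at E-L 38, against 104, 154 and 130 FPKM in MH summer berries (log2 fold change -1.18 ± 0.40 SE, adjusted p = 0.0177, edgeR), and this call was lost without winter replicate 2 (adjusted p = 0.0713) or summer replicate 2 (adjusted p = 0.0714).

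In the VIT_212s0035 run none of the 3 members passed in V at E-L 36, where their log2 fold changes lay between -0.999 and -0.59, and 1 was higher in MH winter berries at E-L 36. VIT_212s0035g00006 had 5.24 ± 1.83 FPKM (SD, n = 3) in V winter berries at E-L 36. In the VIT_218s0001 run 1 member was lower and 1 higher in V winter berries at E-L 36. Its member VIT_218s0001g14410 had 7.38 ± 1.20 FPKM (SD, n = 3) in MH winter berries at E-L 38, with a log2 fold change of -0.64 that did not pass (adjusted p = 0.0864, edgeR).

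The 211 genes ranged from 0.271 to 832 FPKM in their mean over the 36 libraries, with a median of 8.08 FPKM, against 6.85 FPKM over all tested genes. The mean was over 10 FPKM for 94 of them and under 1 FPKM for 18. At 3 counts or fewer in every library of some group were 45 of the genes, 13 of them in V summer berries at E-L 35 and 29 in V winter berries at E-L 38, so the fold changes of these genes depend on a few counts. Their transcripts were shorter than usual, with a median of 1273 bases against 1761 bases over all tested genes, and 24.2% had several transcripts, against 40.4% of all tested genes.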

How the data were processed

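RNA of berries without seeds was sequenced as single-end reads in 36 libraries and, by the study's methods, aligned to the grapevine reference genome (the submitters' notes name Bowtie), with FPKM computed by the authors on the longest transcript. Per the file headers, each deposited library file gives an estimated count (expected count) and FPKM per gene. The counting program and its version are not given in the sources used here. A deposited table of the whole series has 36 columns whose names match no sample label, and it was not used.

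Genes absent from a library file were set to 0. The 211 genes and all lists were chosen with earlier results of these data known. Expected counts were rounded and fitted with edgeR 4.0.16 (R 4.3.3; filterByExpr, TMM, 12 groups, glmQLFit and glmQLFTest; common dispersion 0.0294), with Benjamini-Hochberg adjustment over 19736 of 28119 genes. Each SE was computed as |log2 fold change| / sqrt(F). The code was tested on simulated data. Totals ranged from 5624449 to 18606068 counts per library, and few counts limit the precision of low genes. Alternatives used DESeq2 1.42.0, limma 3.58.1 on log2(FPKM + 1) and log2(FPKM + 0.1), RLE factors, no filter, only the libraries compared, a replicate block and leaving out each library. Tables and plots were made with Python 3.11.15, pandas 2.3.3 and matplotlib 3.10.9.

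The rule for named genes took the most abundant genes, the most changed genes past the threshold in each comparison, the members on the flavonoid list, the highest members of runs and the genes beside the limits. It was narrowed after the files were seen to at most 2 identifiers in each direction, because none of the identifiers was found in the RefSeq gene table used here (0 matches). Roles come from the study's flavonoid list. Lists by annotation words, markers of other tissues, promoter motifs and sequences were not analysed here. The replicate numbers showed no pairing of libraries of the 2 seasons: the correlation of deviations from the group means lay between -0.051 and 0.016. No libraries of a group agreed within sampling noise, and the spread was uneven (chi-square per degree of freedom between 2 libraries of a group from 1.45 to 57.7).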

Additional observations from a re-analysis of the deposited data

Results flagged for a closer look

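These results were singled out because the season effect differed between stages or varieties by a test of the difference itself, on the log2 scale with edgeR's quasi-likelihood test. In MH, the season effect changed from E-L 35 to E-L 38 by -1.28 for VIT_214s0060g00280, by -2.43 for VIT_208s0217g00100, by -2.50 for VIT_218s0001g14440 and by -3.57 for VIT_207s0031g01160. VIT_211s0016g03740 changed by -7.40, with 5 counts in MH summer berries at E-L 35. VIT_212s0059g00310 changed by -2.80 and VIT_212s0059g00370 by -3.02, and both lost the call in most alternatives. VIT_215s0107g00550 changed by 3.29, against the direction of the group. At E-L 36, the effect in V minus that in MH was -3.59 for the PAL gene VIT_208s0040g01710, 4.48 for VIT_203s0063g01820 and 2.91 for VIT_201s0010g01260.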

How the results depend on the processing

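The number of genes that met the limits depended on them: 381 with a pseudocount of 0.1, 164 with 1, 612 with a ratio of 1.5, 49 with a ratio of 3 and 268 on TMM-scaled CPM (192 shared with the 211), and between 157 and 245 without 1 library. With limma on log2(FPKM + 1), the count of all genes past the threshold moved by over 1.5 times, to 2919 in V at E-L 36, 710, 2132 and 2377 in MH at the successive stages, and 2617 and 1498 for harvest against onset in MH winter and summer berries. The counts of the 200 genes past the threshold stayed within 1.5 times in all comparisons and alternatives. Leaving out 1 library, they ranged from 101 to 116 in V at E-L 36, from 27 to 30, 62 to 79 and 78 to 94 in MH at the successive stages, from 62 to 73 for the change in MH and from 44 to 73 for V minus MH at E-L 36. The replicate block, whose numbers showed no pairing of the seasons, gave 107 genes in V at E-L 36 and 74 for the change in MH. For named genes, 1242 of 1357 values under an alternative kept their side of the threshold, 98 lost and 17 gained the call. No value that had passed changed sign. Values that had not passed could change sign, as for VIT_212s0035g00006 in MH at E-L 38 (log2 fold change from -0.288 to 0.326 without 1 library). The choice without V winter E-L 35 replicate 3 was added after seeing the data. Depth limits genes at 3 counts or fewer per library.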

Other observations

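The opposite pattern, a ratio of at most 0.5 at E-L 35 and of at least 2 at E-L 38 in V, was met by 117 genes, the same identifiers being left out. These genes were counted after the values of the 211 were seen. Of them 98 were tested. In V at E-L 36, 42 were higher and none lower in winter berries (at an adjusted p of 0.05 and a fold of 2, edgeR; 2 were lower at an unadjusted p under 0.05 and none with DESeq2), while 9.96% of all tested genes were higher and 13.6% lower. In MH, 9 were higher and 3 lower at E-L 35 (4.15% and 1.86% of all tested genes), 30 higher and 7 lower at E-L 36 (9.80% and 8.97%) and 41 higher and 2 lower at E-L 38 (8.90% and 11.1%). The season effect changed upward from E-L 35 to E-L 38 in MH for 31 of them and downward for 2, while 5.10% of all tested genes had an upward and 8.85% a downward change.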
